A study of Mus musculus with 10 samples.

Results

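The chemokines Ccl19, Ccl21 and Ccl27 and the receptors Ccr7, Ccr10 and Ackr4 were followed in the hippocampus of the obesity mouse line DU6 and of its reference line FztDU. Every transcript cluster (the array's unit of measurement, usually 1 gene) with the symbol Ccl19, Ccl21a, Ccl21b, Ccl21c, Ccl27a, Ccl27b, Ccr7, Ccr10 or Ackr4 was taken, also where the symbol stands beside others. These 9 genes gave 19 of the 22206 clusters, namely 6 for Ccl19, 5 for Ccl21, 5 for Ccl27 and 3 for the receptors. The genes were chosen by their line differences, DU6 against FztDU, on these same arrays, so those differences are described for them and not tested.

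The study asked whether the hippocampus of obese mice carries inflammatory signatures. Total RNA from the whole, snap-frozen hippocampus of 5 male DU6 mice (polygenic obesity) and 5 male FztDU mice (unselected controls) was hybridized to Clariom S Mouse arrays, 1 mouse per array. Both lines are outbred, DU6 having been selected over generations for high body mass, and were housed free of specific pathogens. The mice were 21 to 22 weeks old by the labels. The age is not settled, since the methods and the results of the paper differ on it. Other genetic differences between the lines and obesity cannot be told apart in this design. Values are log2 signals as deposited, with array medians between 5.47 and 5.52. A level is never compared between clusters, because each cluster has its own probes.

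Ccl19 and Ccl21 are the ligands of Ccr7 and guide T cells and mature dendritic cells into lymph nodes, where stromal cells make them. Ackr4 binds Ccl19, Ccl21 and Ccl25 without signalling through G proteins and removes them from the tissue. Ccl27 is known from the skin as the ligand of Ccr10 on T cells, and an alternative transcript of the mouse gene encodes a protein that enters the nucleus. In the mouse these ligand genes lie together on chromosome 4 in a stretch that holds repeated copies, and some laboratory strains with a deletion there lack lymphoid Ccl19 and Ccl21a.

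The stretches before the gene starts are shown first, to let the copies be compared there. The array's probes lie in the transcripts and were not compared. The sequences are those of RefSeq (build GRCm38.p6), read 5′ to 3′ on the strand of the gene. All but that of Ccl27a end at or just before an annotated start. The Ccl27a stretch begins 250 bases before its start and holds 188 bases, so it ends short of that start. Of the 9 genes, 6 had an entry. The first sequence lies before Ccl19 on the minus strand of chromosome 4 (42756366 to 42756615), and its capitals mark a match to the letters GGGNNNNNCC, a loose form of the site that NF-kB factors bind. The next lie before Ccl21a (42773992 to 42774240, minus strand) and before Ccl21d (41903363 to 41903611, plus strand), the RefSeq gene under the cluster listed with the symbol Ccl21b, and capitals mark the base at which they differ. The last lie before the first start sites of Ccl27a (41774239 to 41774426, minus strand) and Ccl27b (42650374 to 42650562, plus strand), and capitals mark a substitution and a base that only Ccl27b has.
Ccl19: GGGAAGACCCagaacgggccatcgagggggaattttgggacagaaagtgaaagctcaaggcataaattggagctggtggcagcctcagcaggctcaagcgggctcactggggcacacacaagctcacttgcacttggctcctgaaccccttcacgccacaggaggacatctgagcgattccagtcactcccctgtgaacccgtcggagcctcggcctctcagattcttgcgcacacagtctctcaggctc
Ccl21a: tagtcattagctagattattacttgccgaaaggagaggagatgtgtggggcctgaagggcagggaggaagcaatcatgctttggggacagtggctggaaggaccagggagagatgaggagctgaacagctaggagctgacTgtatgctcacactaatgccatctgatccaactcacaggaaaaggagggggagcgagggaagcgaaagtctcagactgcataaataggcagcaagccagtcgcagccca
Ccl21d: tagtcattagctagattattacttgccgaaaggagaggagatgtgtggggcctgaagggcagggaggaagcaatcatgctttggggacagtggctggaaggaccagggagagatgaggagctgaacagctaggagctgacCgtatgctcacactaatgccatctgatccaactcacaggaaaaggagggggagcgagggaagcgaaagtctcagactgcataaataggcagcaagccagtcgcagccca
Ccl27a: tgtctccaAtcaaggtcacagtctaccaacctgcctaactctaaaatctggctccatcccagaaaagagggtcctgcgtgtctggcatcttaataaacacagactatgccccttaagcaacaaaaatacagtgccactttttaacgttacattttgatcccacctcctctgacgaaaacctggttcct
Ccl27b: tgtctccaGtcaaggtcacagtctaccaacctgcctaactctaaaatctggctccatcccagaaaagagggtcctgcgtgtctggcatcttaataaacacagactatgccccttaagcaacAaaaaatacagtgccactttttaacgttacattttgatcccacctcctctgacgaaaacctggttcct

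The stretches before Ccl21a and Ccl21d differed by 1 substitution in 249 aligned bases. Those before Ccl27a and Ccl27b differed by 1 substitution and 1 gap in 189 aligned positions, and those before Ccl27b and its further copy Gm13306 by 0 in 250 bases. The letters GGGNNNNNCC were searched on both strands in the 250 bases before each start. They occurred before Ccl19, before 2 of 3 starts of Ccl27a, 1 of 4 of Ccl27b and before Ackr4, and in 0 of 1 windows each of Ccl21a, Ccl21b and Ccl21d. Of all 32851 windows in the table, 45.8% hold them, so a match is common.

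The clusters follow this repeated structure. Of the 16 ligand clusters, 9 lie on placed chromosome 4 (build mm10, which shares its placed chromosomes with GRCm38.p6) and 7 on unplaced sequences assigned to it, and 10 carry a Gm symbol as well. Only 1 of the 6 clusters with the symbol Ccl19 overlaps the gene that RefSeq names Ccl19. A further 2 match RefSeq pseudogenes, Ccl19-ps2 and Ccl19-ps3. The others match Gm12407 and Gm2023, both annotated as protein-coding, and a pair of transcribed pseudogenes, Gm21104 and Gm2457. On unplaced sequences the match rests on nearby start and end positions alone. Both unplaced Ccl27b clusters had equal values on all 10 arrays, and 2 of the 5 Ccl21 clusters each had the values of a Gm13304 cluster elsewhere on chromosome 4. Signals of such copies cannot be taken as separate measurements, and which copy gave rise to a signal was not tested.

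Ccl19 was lower in DU6 than in FztDU in all 6 clusters. The log2 differences ran from -2.27 to -1.46 with a median of -1.84, against a median of 0.002 over all clusters, and the DU6 signal was 3.0 to 4.81 times lower in the 5 clusters called expressed in both lines. In the authors' deposited averages, whose log2 scale is wider, the differences of these 5 ran from -4.71 to -4.23 and that of the Ccl19 gene itself was -1.68. No DU6 array reached the level of any FztDU array in any of the 6. All of them met the call rule of the fit over all clusters (limma, adjusted p under 0.05 and a fold over 2), which 0.0946% of all clusters met in the lower direction. The same 6 were without overlap between the lines, which 0.712% of all clusters were in that direction. As the choice of the genes used this contrast, these counts carry no weight of their own. In whole tissue, fewer cells that express a gene and less RNA per cell cannot be told apart.

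The Ccl19 gene itself (42754525 to 42756577, minus strand) measured 3.15, 3.35, 3.18, 3.23 and 3.51 in DU6 replicates 1 to 5. In FztDU it measured 5.05, 4.85, 4.88, 4.95 and 3.99. All DU6 values lay within a narrow low band, whereas FztDU replicate 5 stood between the lines. The mean was 3.28 ± 0.15 (SD, n = 5) in DU6 against 4.74 ± 0.43 (SD, n = 5) in FztDU, and the difference was -1.46 (standard error 0.18). The authors' table calls this cluster expressed in FztDU and not expressed in DU6, so its DU6 level lies near the floor of the array, and the fitted difference (2.75 times lower) may understate the change. It is the only one of the 19 clusters not called expressed in both lines.

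The Ccl19 cluster 125 kb below the gene (42629332 to 42631714, at Ccl19-ps2) had the widest gap. Its values were 5.03, 4.30, 4.66, 4.90 and 4.82 in DU6 and 7.12, 7.49, 6.95, 6.98 and 6.50 in FztDU. The highest DU6 array was thus well under the lowest FztDU array, and the difference was -2.27 (standard error 0.18).

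The clusters 623 kb and 963 kb below the gene lie at the far copies of the stretch. At 42131994 to 42134376 (Gm21104 and Gm2457) DU6 measured 5.63, 5.25, 4.96, 5.53 and 5.77, and FztDU 7.48, 7.86, 7.34, 7.57 and 6.99, a difference of -2.02 (standard error 0.18). At 41791784 to 41794438 (Gm12407) DU6 measured 5.87, 5.42, 5.09, 5.60 and 6.29, and FztDU 7.27, 7.40, 7.05, 7.52 and 6.95, a difference of -1.58 (standard error 0.20). DU6 replicate 5 was the highest of its line in both clusters and still lay under every FztDU array.

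On the unplaced sequences, the cluster shared by Gm2023 and Ccl19 (102334 to 104327) measured 5.79, 5.32, 4.99, 5.59 and 5.86 in DU6 and 7.59, 7.97, 7.36, 7.71 and 7.05 in FztDU. Its difference was -2.03 (standard error 0.19). The cluster at 41306 to 43295 (Ccl19-ps3) measured 5.51, 5.42, 5.06, 5.59 and 6.12 in DU6 and 7.12, 7.39, 7.11, 7.32 and 7.03 in FztDU, a difference of -1.65 (standard error 0.17). The FztDU arrays of this cluster lay closer together (SD 0.15) than its DU6 arrays (SD 0.38), the reverse of the Ccl19 gene itself.

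**Figure D1:**
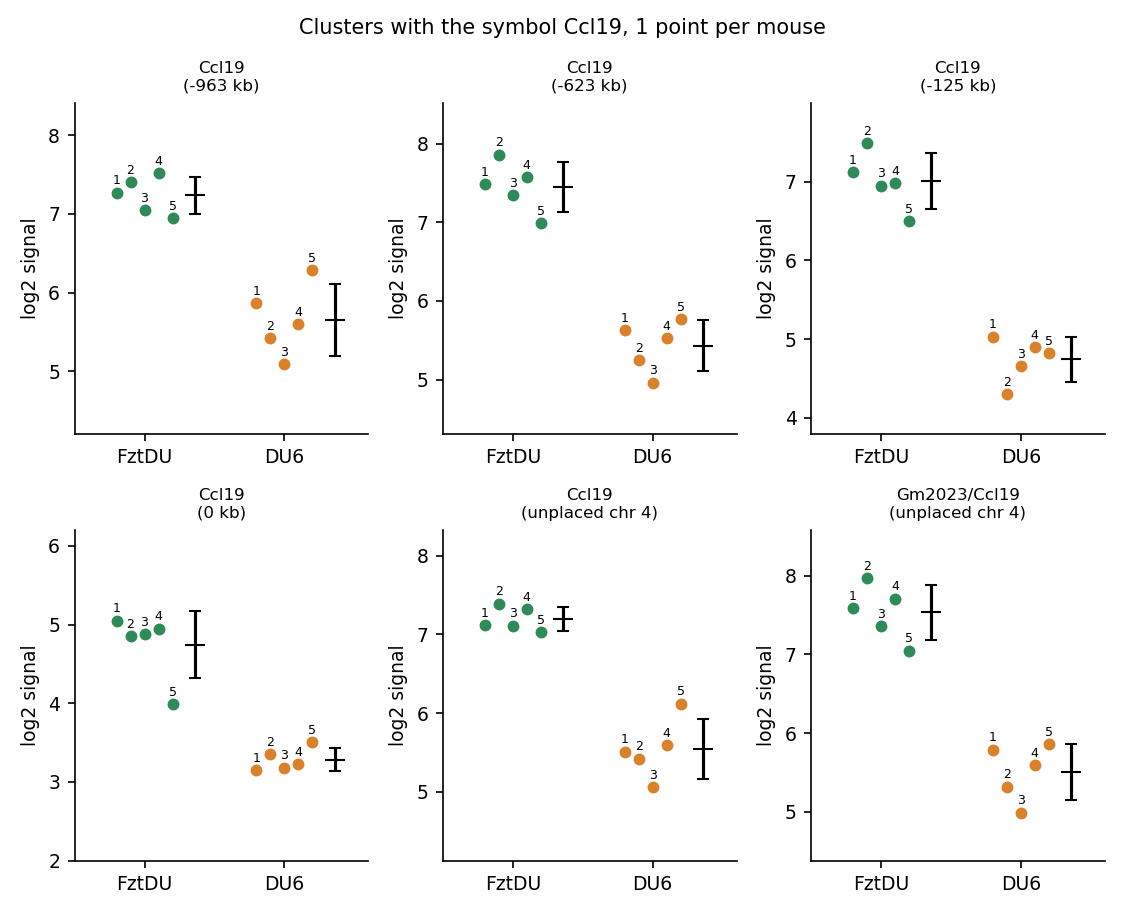
Log2 signal (y axis) of the 6 clusters with the symbol Ccl19 in FztDU and DU6 mice. Each point is 1 mouse with its replicate number, bars are mean ± SD (n = 5), every panel spans the same number of log2 units, and the kb value is the distance of the cluster's start from that of the Ccl19 gene. The lines do not overlap in any panel, and FztDU replicate 5 is the lowest FztDU mouse in all 6.

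Within each line the Ccl19 clusters moved together from mouse to mouse. FztDU replicate 5 was the lowest of its line in 6 of 6 clusters, on average 0.44 log2 units under the line's mean (a mean deviation of -0.44). FztDU replicate 2 was the highest in 4 of 6. In DU6, replicate 5 was the highest in 5 of 6 and replicate 3 the lowest in 4 of 6. Whether these clusters share transcripts or probes was not tested, and they are not counted as independent observations.

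Some mice carried RNA of neighbouring tissue. The mean of 10 choroid plexus genes stood 2.08, 2.02 and 1.65 log2 units above its average over all arrays in DU6 replicates 1 and 5 and FztDU replicate 5, and between -1.16 and -0.12 in the others. The mean Ccl19 deviation from the line's mean was 0.14 in DU6 replicate 1, 0.37 in DU6 replicate 5 and -0.44 in FztDU replicate 5. Without the 3 arrays the median Ccl19 difference was -2.13, larger than with them. The mean of 9 cerebellar genes was 4.19 above its average in DU6 replicate 2 and between -0.75 and -0.16 in the others, and without that array the median Ccl19 difference was -1.80. Fibroblasts and lymphatic endothelium of lymphoid tissue are known sources of Ccl19 and Ccl21. The lists read here were of meningeal fibroblasts (10 genes), endothelial cells (8) and blood cells (3), not of lymphoid tissue. The mean of the fibroblast genes lay from -0.30 to 0.46 around its average in DU6 (median 0.18) and from -0.46 to 0.26 in FztDU (median -0.34). That of the endothelial genes lay from -0.07 to 0.30 (median 0.11) and from -0.44 to 0.26 (median -0.08). That of the blood genes lay from -0.33 to 1.50 (median 0.15) and from -0.51 to -0.12 (median -0.23). Their part in the Ccl19 levels was not tested. All 9 genes of hippocampal neurons measured alone in a cluster were called expressed in both lines. At an unadjusted p under 0.05 in limma, 1 was higher in DU6 (Spink8, 1.06) and 1 lower (C1ql2, -0.65), and neither was called. The mean of the 9 was lowest in DU6 replicate 2 (-0.64).

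Ccl27 was lower in DU6 in 5 of 5 clusters, by less than Ccl19. The log2 differences ran from -0.59 to -0.40 with a median of -0.53, none met the call rule, and 2 of 5 were without overlap between the lines, as were 0.712% of all clusters in the lower direction. These genes too were chosen by this contrast, and nothing is read from the counts.

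Ccl27a (41769467 to 41774247, minus strand) measured 9.46, 9.33, 9.63, 9.67 and 9.53 in DU6 and 9.76, 10.32, 9.86, 9.57 and 10.13 in FztDU. Only FztDU replicate 4 lay within the DU6 range. The difference was -0.40 (standard error 0.14), from 9.93 ± 0.30 (SD, n = 5) to 9.52 ± 0.14 (SD, n = 5).

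The Ccl27b cluster 104 kb below Ccl19 (42650604 to 42656005, shared with Gm2506) measured 8.21, 8.16, 8.37, 8.33 and 8.28 in DU6. In FztDU it measured 8.93, 9.09, 8.89, 8.45 and 8.95. The lines did not overlap, although FztDU replicate 4 exceeded the highest DU6 array only narrowly. The difference was -0.59 (standard error 0.12). The annotated span of this cluster also overlaps Ccl19-ps2, the RefSeq pseudogene matched by the Ccl19 cluster at 42629332.

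The Ccl27b cluster shared with Gm13306 and 4933409K07Rik (42153436 to 42462993) measured 8.80, 8.78, 8.99, 8.99 and 8.87 in DU6 and 9.50, 9.65, 9.39, 9.07 and 9.56 in FztDU, a difference of -0.55 (standard error 0.12). Its annotated span runs over many other genes, among them the RefSeq gene Ccl21b. Gm21104, a pseudogene matched by the Ccl19 cluster at 42131994, is also among them. The unplaced Ccl27b clusters (16836 to 22237 and 1718 to 3814) measured 8.80, 8.77, 9.07, 8.97 and 8.85 in DU6 and 9.50, 9.65, 9.38, 9.04 and 9.55 in FztDU, a difference of -0.53 (standard error 0.12). Here the highest DU6 array just passed the lowest FztDU array.

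**Figure D2:**
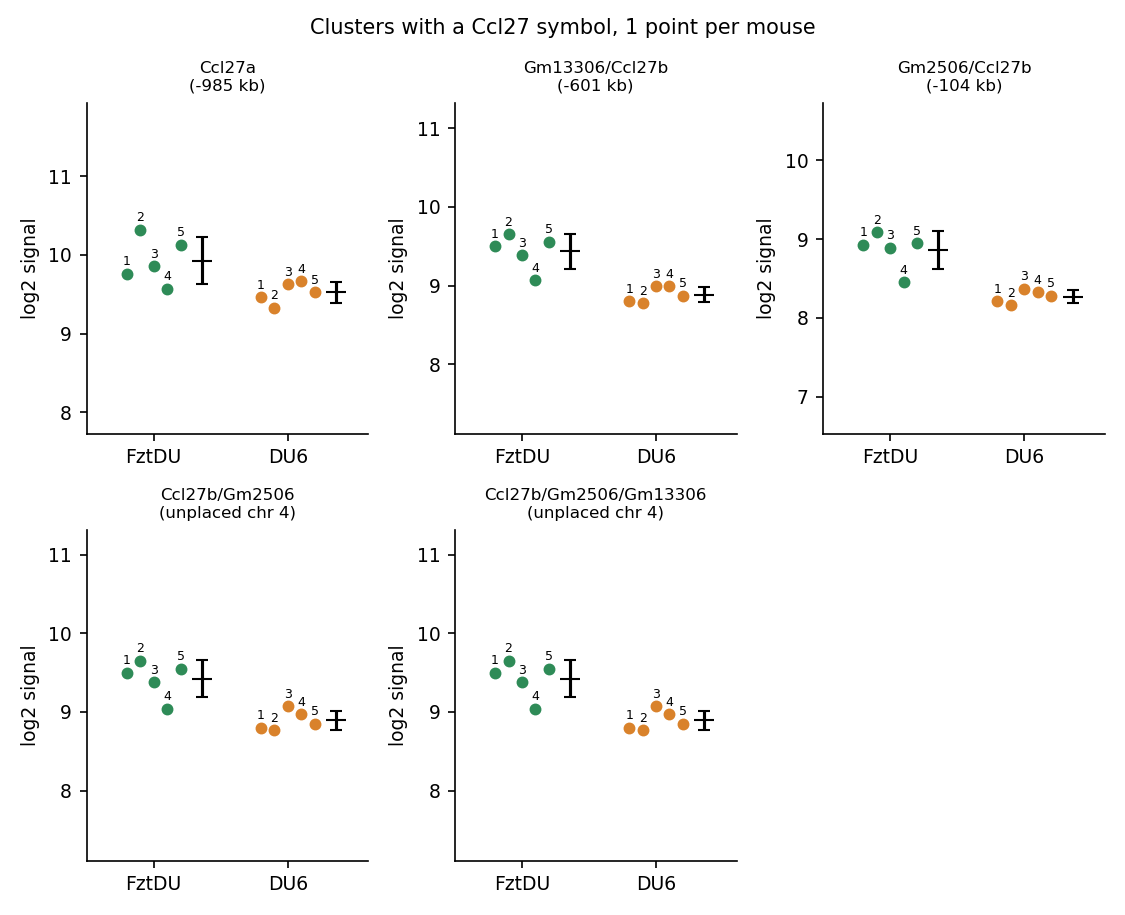
Log2 signal (y axis) of the 5 clusters with a Ccl27 symbol in FztDU and DU6 mice. Each point is 1 mouse with its replicate number, bars are mean ± SD (n = 5), every panel spans the same number of log2 units, and the kb value is the distance of the cluster's start from that of the Ccl19 gene. FztDU replicate 4 is the lowest FztDU mouse in all 5 panels and lies closest to the DU6 mice.

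The lowest mice of each line were mostly not those of Ccl19, whereas FztDU replicate 2 stood highest of its line in most clusters of both. FztDU replicate 4 was the lowest of its line in 5 of 5 Ccl27 clusters, FztDU replicate 2 the highest in 5 of 5, and DU6 replicate 2 the lowest in 5 of 5. FztDU replicate 5, low for Ccl19, was on average 0.13 above the mean of its line for Ccl27. FztDU mice spread more (SD 0.22 to 0.30) than DU6 mice (SD 0.09 to 0.14).

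Ccl21 did not share this pattern, although its copies lie among those of Ccl19 and Ccl27. Its 5 clusters had log2 differences from -0.29 to 0.01 with a median of -0.09, 4 of them negative. None met the call rule or was without overlap. Ccl21a (42772860 to 42773993, minus strand), whose start is 18.3 kb from that of Ccl19, measured 4.10, 4.18, 3.91, 4.10 and 4.05 in DU6 and 4.08, 4.28, 4.49, 3.80 and 3.74 in FztDU. The difference was -0.01 (standard error 0.14), and all DU6 values lay inside the FztDU range. The cluster listed with Gm13304, Gm21541 and Ccl21b (41903602 to 41904743, at Ccl21d) had the lowest difference, -0.29 (standard error 0.19). It measured 3.28, 3.26, 3.58, 3.56 and 3.90 in DU6 and 3.38, 4.19, 4.12, 3.39 and 3.95 in FztDU, where replicates 1 and 4 lay at the level of DU6. The unplaced clusters of Ccl21b, Ccl21c and Ccl21a differed by -0.09, -0.11 and 0.01.

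The receptors lie on other chromosomes and had overlapping values in the lines. Ccr7 (chromosome 11, 99144196 to 99155077), the signalling receptor of Ccl19 and Ccl21, measured 5.83, 5.36, 5.28, 6.04 and 5.82 in DU6 and 5.78, 5.97, 5.35, 5.89 and 5.51 in FztDU. Its difference of -0.03 (standard error 0.17) was smaller than the spread in either line. Ccr10 (chromosome 11, 101172997 to 101175443), the receptor of Ccl27, measured 3.72, 3.17, 3.31, 3.69 and 3.45 in DU6 and 3.46, 3.33, 3.19, 3.80 and 3.34 in FztDU, a difference of 0.04 (standard error 0.14). Ackr4 (chromosome 9, 104084157 to 104126643) measured 3.49, 3.61, 3.38, 3.40 and 3.37 in DU6 and 3.11, 3.37, 3.15, 3.24 and 3.46 in FztDU. Its difference was 0.18 (standard error 0.10), and only FztDU replicate 5 and replicate 2 reached the DU6 range. Ackr4 was called expressed in both lines. Its cluster is among the lowest 25% by mean signal, which limits what its difference can show.

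**Figure D3:**
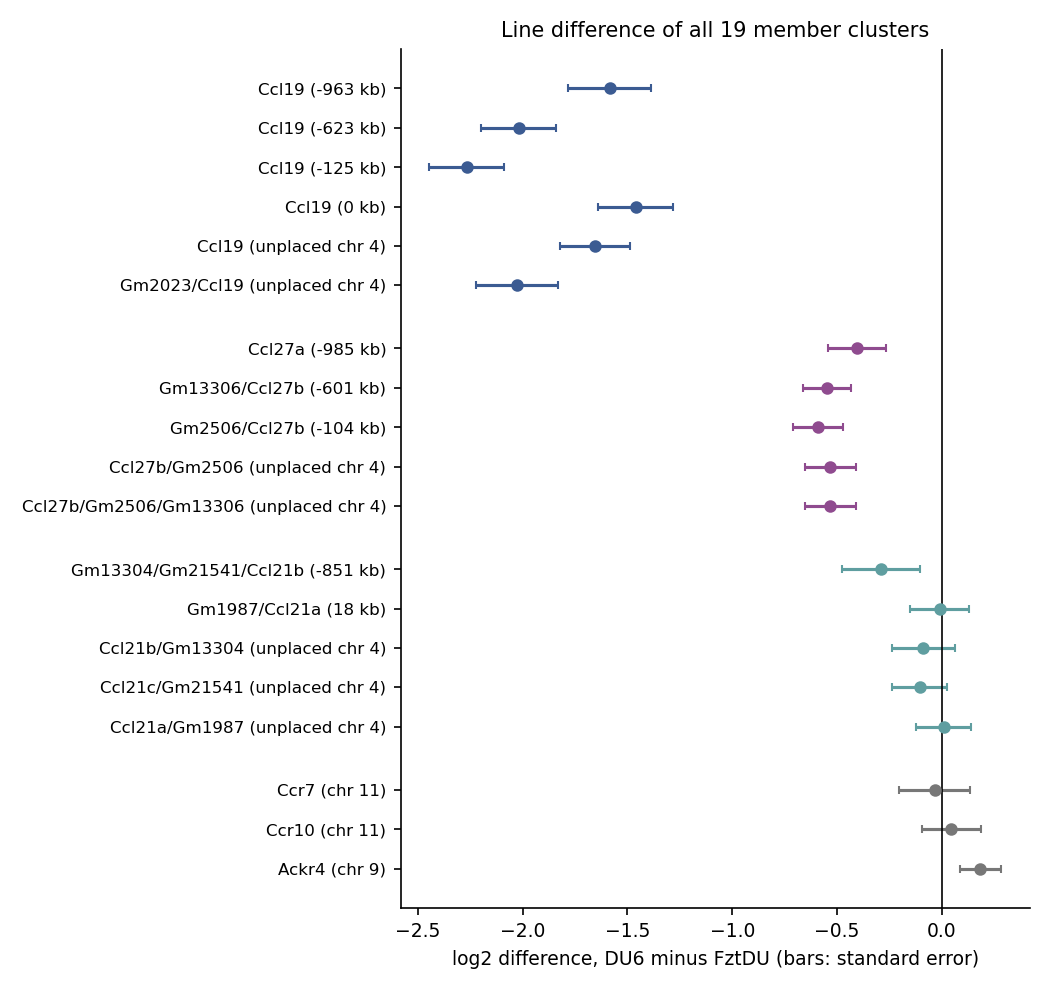
Log2 difference, DU6 minus FztDU (x axis), of all 19 clusters, with bars for the standard error of the limma fit and the distance from the Ccl19 gene or the chromosome in the label. The 6 Ccl19 clusters lie between -2.27 and -1.46, the 5 Ccl27 clusters between -0.59 and -0.40, and the Ccl21 and receptor clusters near 0.

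When the profile over the 10 arrays, centred on its mean, was set against that of the Gm2023 and Ccl19 cluster, the cluster at 42131994 was closest (root mean square difference 0.04). The other Ccl19 clusters followed at 0.23 to 0.40, the Ccl27 clusters at 0.81 to 0.90 and the rest at 0.97 to 1.16. This measure holds the line difference by which the genes were chosen, so it describes the clusters and is no separate support. Outside the 9 genes, the clusters most like it were Gm8265 on chromosome 14 (0.31), LOC100861647 on chromosome 4 (0.34), Gm3099 on chromosome 14 (0.44), the unplaced cluster of Gm20878 and Gm13308 (0.48) and Gm6356 on chromosome 14 (0.49). The mean of Gm8265 was 2.48 in DU6 and 4.40 in FztDU.

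The clusters around the chemokine genes carry none of the 9 symbols and were tested. Some share another symbol or an annotated span with clusters of the 9 genes. Within the stretch from Ccl27a to Ccl21a, 6 of 24 other clusters were called lower in DU6 and 0 higher. Of all clusters, 0.0946% were called lower. With equal values counted once, 5 neighbours were called, since Gm21968 and Gm10592 hold the same values. Among the 24, 2 Gm13304 clusters hold the values of Ccl21 clusters and are no separate measurement, and neither was called. At an unadjusted p under 0.05 in limma, 11 of the 24 were lower and 2 higher, against 3.17% and 2.70% of all clusters. Gm21968 and Gm10592 are both among the 11, as are clusters that share the symbol Gm13308 and others that share Gm13298. Such copies cannot be taken as separate measurements, so the 11 are not independent observations. In the 1 Mb on either side, 0 of 26 clusters below and 0 of 38 above were called in limma, with 2 lower and 0 higher below, and 2 lower and 2 higher above, at an unadjusted p under 0.05. The medians were -0.24 within the stretch, 0.005 below and 0.02 above.

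Among the called neighbours the gap was wider than for Ccl19 in 4. Gm3893, shared with 4933409K07Rik, measured 6.03, 5.50, 6.22, 6.33 and 5.92 in DU6 and 9.82, 10.10, 10.03, 8.83 and 9.48 in FztDU. In limma this was -3.65 with a standard error of 0.23 and an adjusted p of 9.31e-06. The annotated span of this cluster (41889795 to 42235604) covers the Ccl19 cluster at 42131994 and the Ccl21 cluster at 41903602. It also overlaps the Ccl27b cluster listed with 4933409K07Rik. Whether it measures transcripts apart from theirs was not tested. Gm10600 differed by -3.09 (adjusted p = 0.000317 from limma). Gm21968 and Gm10592, with equal values on all arrays, differed by -3.41 (adjusted p = 5.87e-07 from limma) and were not called expressed in DU6. LOC100861647 and a Gm13308 cluster at 42438975 differed by -1.48 and -1.15. Like Ccl27, Gm3893, Gm10600, Gm21968 and Gm10592 were lowest among FztDU mice in replicate 4. LOC100861647 was lowest in FztDU replicate 5 and the Gm13308 cluster in FztDU replicate 1. Gm21955, named after its value was seen, ran the other way, with 1.17 (adjusted p = 0.0956 from limma), and was called higher without FztDU replicate 5 (1.38, adjusted p = 0.00707). What these predicted genes encode is not given in the files.

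Genes with known roles at the edges of the stretch were not called. Il11ra1, a receptor chain for interleukin-11 whose cluster meets that of Ccl27a, differed by 0.04 (standard error 0.16). The clusters of its copy Il11ra2, named after their values were seen, differed by 0.03 and -0.04 where they lie beside the placed Ccl27b clusters (standard errors 0.11 and 0.18). Galt, an enzyme of galactose metabolism, differed by 0.27 (standard error 0.18). On the other side Fam205a1 differed by -0.96 (adjusted p = 0.256 from limma), Fam205c by 0.28 and Phf24 by 0.17. The lncRNA 4930578G10Rik, whose span covers Ccl19 and Ccl21a, was named after its value was seen. It differed by 0.41 (standard error 0.11, adjusted p = 0.333 from limma), upward where Ccl19 was downward, and did not pass the test.

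**Figure D4:**
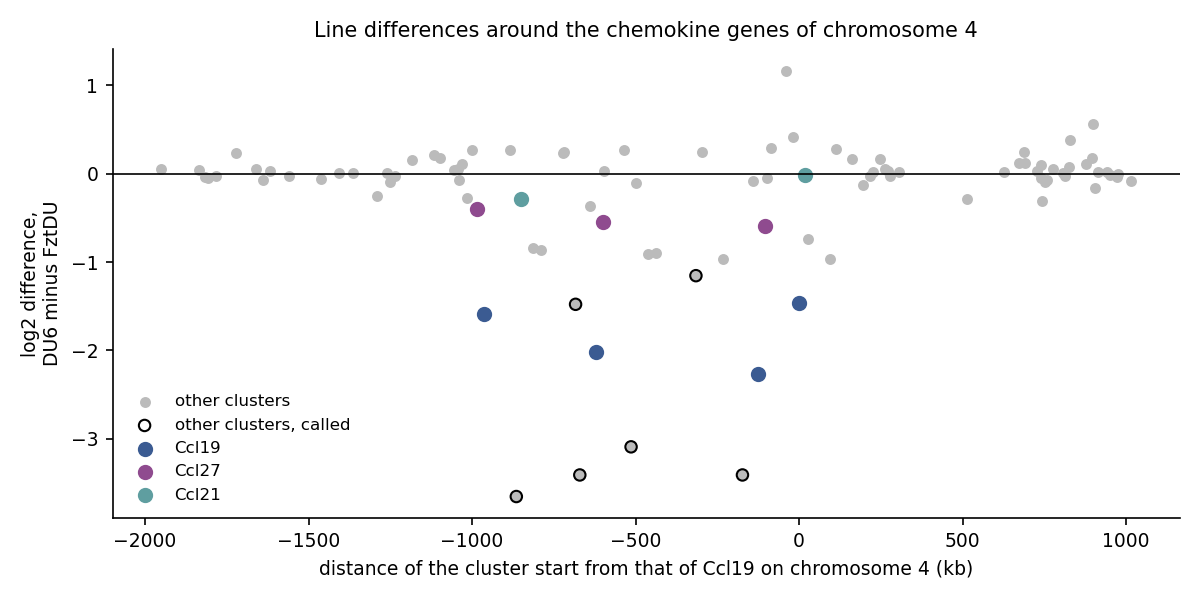
Log2 difference, DU6 minus FztDU (y axis), of each cluster against the distance of its start from that of the Ccl19 gene in kb (x axis). Coloured points are the chemokine clusters on placed chromosome 4, grey points the other 88 clusters and black rings the 6 of them called lower. The called points lie within the repeated stretch, where Ccl21 and several other clusters lie near 0, and Fam205a1 above it at -0.96 was not called.

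The rest of the network was read from 5 lists with 93 clusters of genes measured alone in a cluster. In limma 0 of 93 were called, and at an unadjusted p under 0.05 there were 2 lower and 6 higher, 8.60% of the list clusters against 5.86% of all clusters. The median difference was 0.03.

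Among other ligands and receptors of the network, 1 of 17 was lower and 2 were higher at an unadjusted p under 0.05. Ccr6, the receptor of Ccl20 on B cells and T cells, had the smallest adjusted p in these lists. It measured 3.93, 4.01, 4.36, 3.54 and 3.55 in DU6 and 4.78, 4.71, 4.69, 4.48 and 4.80 in FztDU, so that the lines did not overlap. Its difference of -0.81 (standard error 0.15) gave an adjusted p of 0.0728 in limma. It was also under the fold of 2 that a call needs. Ccl28, the other ligand of Ccr10, differed by 0.36, Cxcr5, a receptor of B cells, by 0.29, and Ccr9, the receptor of Ccl25, by 0.33, and none of these passed the test. Cxcr5 and Ccr9 were called expressed in neither line, so their differences lie among signals near the floor.

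In the Ccr7 signalling list 19 of 19 clusters were called expressed in both lines, 1 was lower and 1 higher at an unadjusted p under 0.05. St8sia4, a sialyltransferase that adds polysialic acid to Ccr7, differed by -0.39 (adjusted p = 0.599 from limma). The G protein subunits Gnai2 and Gnai3 differed by 0.25 and 0.20, and Rac2, a small GTPase of blood cells, by 0.33, without passing the test.

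The list of lymphotoxin and NF-kB genes, a pathway that induces Ccl19 and Ccl21 in lymphoid stroma, had 0 of 20 clusters at an unadjusted p under 0.05. The smallest p-values belonged to Rela, an NF-kB subunit, with a difference of 0.23, and Ltb, a lymphotoxin chain not called expressed in DU6, with -0.21. Traf2, an adaptor of the receptors, differed by -0.20 and Tnfrsf14, a receptor of Tnfsf14, by 0.26. Of 17 genes of lymphoid stroma and lymphatic endothelium, 2 were higher at an unadjusted p under 0.05, Cxcl16, a transmembrane chemokine, by 0.46 (adjusted p = 0.685 from limma) and Flt4, the receptor of lymphatic growth factors, by 0.29. Glycam1, a ligand of L-selectin on lymph node venules, and Tnfsf13b, a survival factor of B cells, differed by -0.23 and -0.21.

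Of 20 genes of T cells, B cells and dendritic cells, the cells that Ccl19 and Ccl21 attract, 12 were called expressed in both lines and 4 in neither. Cd8a, a co-receptor of cytotoxic T cells, was the only one at an unadjusted p under 0.05, with a difference of 0.30 (adjusted p = 0.760 from limma), whereas its partner chain Cd8b1 differed by -0.14. Cd8a was not called expressed in FztDU, nor Cd8b1 in DU6. Ms4a1, a B cell gene called expressed in neither line, and Fscn1, an actin bundler of dendritic cells that neurons also express, differed by -0.25 and -0.20.

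**Figure D5:**
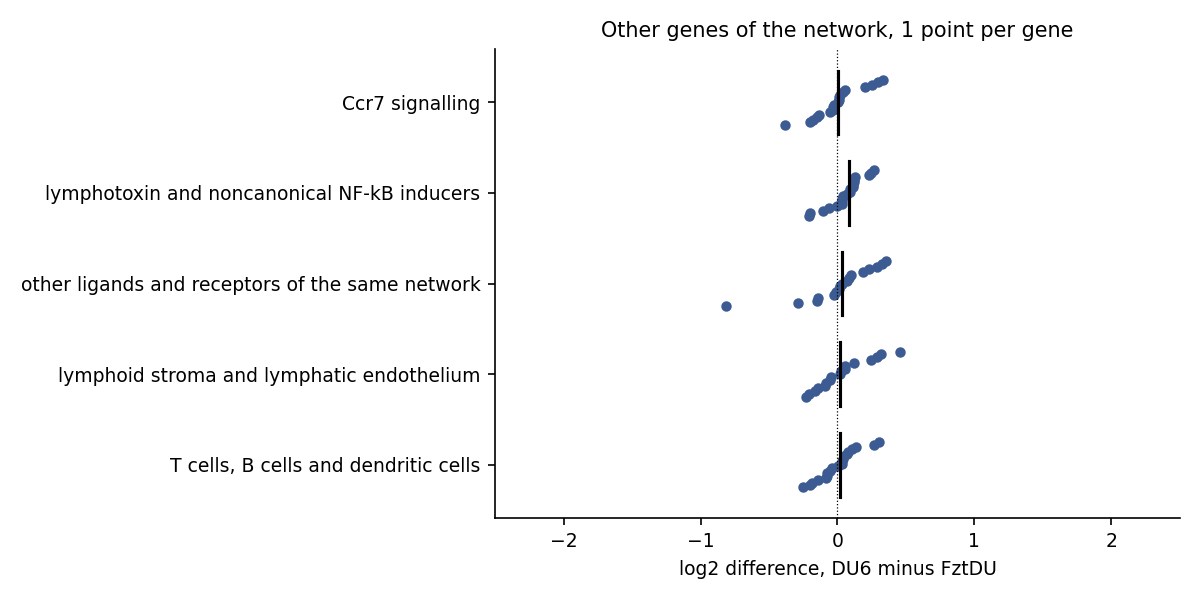
Log2 difference, DU6 minus FztDU (x axis), of each gene in the 5 lists of the network (y axis), 1 point per gene and a line at each list's median. The points lie between -0.81 (Ccr6) and 0.46 (Cxcl16), and no gene was called.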

How the data were processed

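Total RNA of 10 hippocampi was measured on Clariom S Mouse arrays. The authors processed the arrays in the Transcriptome Analysis Console, with SST-RMA named in the methods, and deposited log2 values per cluster and array, taken here unchanged. A further deposited table holds expression calls and log2 line averages of wider scale, by a step not stated. Averages and calls were used, fold changes and p-values were not. Clusters and positions follow that table (mm10). RefSeq genes were matched by overlap of positions.

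Lines were compared over all 22206 clusters with limma 3.58.1 in R 4.3.3 (two-sided, Benjamini-Hochberg, no filter), tested on simulated data. A call needed an adjusted p under 0.05 and a fold over 2. P-values set a line difference against the spread between mice of the same line, and speak of these lines only. The number of arrays limits the precision.

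The genes, lists and tests were chosen with earlier results of these data known. Named were all clusters of the 9 genes, the 5 most alike in profile, up to 4 genes per list with the smallest p, and near the genes the called clusters and the 3 nearest named genes on each side. One of these is not reported here. Arrb2, Grk3 and Lck share a cluster and were not counted. Alternatives were other normalizations, a low filter, other limma settings, the replicate block, arrays left out, tissue covariates and the authors' averages. Figures were drawn with matplotlib 3.10.9, and sequences were aligned with Biopython 1.88.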

Additional observations from a re-analysis of the deposited data

Results flagged for a closer look

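In 102 groups of 5 mice, the lowest or highest value was set against the rest of its line, and 3 stood far apart by Dixon's criterion, which chance meets in about 1 of 20 groups. FztDU replicate 5 measured 3.99 for the Ccl19 gene itself, against 4.85 to 5.05 in the other FztDU mice. This mouse was also the lowest of its line in the other Ccl19 clusters and had high choroid plexus genes, and the part of that tissue in its value was not tested. FztDU replicate 5 measured 3.11 for Cd8a, against 3.50 to 3.57 in the other FztDU mice. FztDU replicate 3 measured 2.92 for Cd8b1, against 3.31 to 3.43.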

How the results depend on the processing

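Leaving out each array in turn kept 6 chemokine clusters called, 6 to 8 neighbours on chromosome 4 (8 lower without FztDU replicate 4, 6 lower and 1 higher without FztDU replicate 5), and 23 to 28 of all clusters (25 with all arrays). The 141 list and marker clusters gave 0 to 1 calls, the 1 being Spink8, a marker of hippocampal neurons, without FztDU replicate 2 (log2 difference 1.30, adjusted p = 0.00504 from limma). The family medians then ran from -1.95 to -1.72 (Ccl19), from -0.63 to -0.48 (Ccl27), from -0.19 to 0.02 (Ccl21) and from -0.02 to 0.14 (receptors). Ccl19 moved to -2.13 without the arrays with high choroid plexus genes. With the authors' deposited averages, whose scale is wider, Ccl19 had a median of -4.38 and Ccl27 of -1.23, and the cause was not tested. Il11ra1, near 0, turned to -0.17 without the choroid plexus arrays and to -0.01, -0.06 and -0.05 without DU6 replicate 4, DU6 replicate 5 and FztDU replicate 5, within a range of -0.0575 to 0.115 over the arrays left out. With the replicate number as a block, 5 chemokine clusters, 5 neighbours and 20 of all clusters were called. The Ccl19 gene itself and LOC100861647 (log2 difference -1.48, adjusted p = 0.105 from limma) lost their calls there. Mice of equal number had correlations of their deviations of -0.02 to 0.29, over 0.1 in 3 of 5 pairs (mean 0.104 for equal and -0.0258 for other numbers). As not every pair was over 0.1, the mice were not treated as paired, which does not exclude a shared effect of the number. Over the alternatives the adjusted p of Ccr6 ran from 0.0143 to 0.590 in limma. Its difference ran from -0.9345 to -0.695, always under a fold of 2, so it was never called. No other alternative changed a call among the chemokine clusters, the neighbours named by rule and the named genes of the 5 lists, or the sign of a called one. Signals near the floor, as of the Ccl19 gene in DU6, limit what a difference can show.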
